A study of Mus musculus with 6 samples.

Results

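GABAergic interneuron identity genes were examined in hippocampal RNA-Seq libraries of Phf21bΔ4/Δ4 and Phf21b+/+ mice. The set holds 10 named genes, and all 10 were among the 14477 genes with values. They were the GABA-synthesizing enzyme genes *Gad1* and *Gad2*, the vesicular GABA transporter gene *Slc32a1*, the transcription factor gene *Lhx6*, and 6 genes whose products mark interneuron classes (*Pvalb*, *Sst*, *Npy*, *Vip*, *Cck*, and *Reln*). They were chosen by name with earlier results of these data known, and no threshold on measured values was part of the choice. The study generated the Phf21bΔ4/Δ4 line by CRISPR/Cas9 with a pair of guides against exon 4 of *Phf21b*, which encodes a PHD finger reader of histone marks, and kept it on a C57BL/6J background. The deletion is carried by the whole body, and the wild-type controls were described as littermates, with young adult males and females used. The RNA came from untreated (baseline) hippocampus, with 3 libraries of Phf21bΔ4/Δ4 mice (replicates 2, 3, and 6) and 3 of Phf21b+/+ mice (replicates 5, 7, and 8). The sources used here give neither the sex and exact age of each mouse nor a library batch, and do not say outright that each library came from a separate mouse, so p-values measure the spread between these libraries, which may be technical.

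Hippocampal interneurons release GABA onto pyramidal cells, granule cells, and each other. The decarboxylases encoded by *Gad1* and *Gad2* make GABA from glutamate, and the transporter encoded by *Slc32a1* loads it into synaptic vesicles, so these genes mark nearly all GABAergic neurons. Interneurons born in the medial ganglionic eminence depend on *Lhx6* and include most parvalbumin and somatostatin cells, whereas cells that make vasoactive intestinal peptide, many cholecystokinin cells, and many reelin cells come from the caudal ganglionic eminence. Some of the genes are used by other cells too: cholecystokinin mRNA is also made by excitatory neurons, and reelin by Cajal-Retzius cells. In RNA from whole tissue, a change in the number of cells of a type and a change in the RNA per cell cannot be told apart.

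Because the study concerned the transcription factor CREB, promoter sequences of the 10 genes were searched for the cAMP response element that CREB recognizes. RefSeq windows on GRCm38.p6, from 250 bases before to 50 bases after each start site, were found for all 10 genes, with 13 windows in all. The complete element TGACGTCA, which reads the same on both strands, was in the window of 1 gene, *Sst*, 48 bases before the start, and in 1.79% of all 32851 windows of this length. Its core TGACG, searched on both strands and contained in the complete one, was in the windows of 4 genes (*Gad2*, *Sst*, *Vip*, and *Cck*) and in 20.8% of all windows. The homeodomain core TAATTA, also the same on both strands, was in none of the 13 windows and in 5.29% of all windows. The 4 windows with an element are printed 5′ to 3′ along the gene, because they let the levels given further on be read beside the sequence, with the complete element or its core in capitals. They lie at chr2:22622077-22622376 (plus strand) for *Gad2*, chr16:23890795-23891094 (minus strand) for *Sst*, chr10:5638968-5639267 (plus strand) for *Vip*, and chr9:121495645-121495944 (minus strand) for *Cck*. A match describes letters in the sequence, and binding was not measured in these libraries.
Gad2: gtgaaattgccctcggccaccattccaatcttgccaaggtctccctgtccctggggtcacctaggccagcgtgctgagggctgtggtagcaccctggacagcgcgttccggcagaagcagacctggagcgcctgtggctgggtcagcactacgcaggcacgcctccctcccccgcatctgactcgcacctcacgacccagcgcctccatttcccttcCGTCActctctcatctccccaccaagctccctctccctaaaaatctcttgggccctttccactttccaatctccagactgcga
Sst: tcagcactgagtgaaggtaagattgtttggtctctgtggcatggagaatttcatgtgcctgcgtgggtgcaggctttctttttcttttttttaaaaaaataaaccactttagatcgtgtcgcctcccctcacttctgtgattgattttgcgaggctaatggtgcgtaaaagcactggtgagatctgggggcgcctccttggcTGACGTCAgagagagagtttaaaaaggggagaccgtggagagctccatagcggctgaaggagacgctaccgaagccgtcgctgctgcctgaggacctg
Vip: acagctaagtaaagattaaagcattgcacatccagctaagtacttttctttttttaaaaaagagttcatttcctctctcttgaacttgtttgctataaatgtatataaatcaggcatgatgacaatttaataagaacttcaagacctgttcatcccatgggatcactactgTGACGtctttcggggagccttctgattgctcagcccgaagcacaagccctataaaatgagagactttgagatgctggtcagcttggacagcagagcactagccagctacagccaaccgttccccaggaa
Cck: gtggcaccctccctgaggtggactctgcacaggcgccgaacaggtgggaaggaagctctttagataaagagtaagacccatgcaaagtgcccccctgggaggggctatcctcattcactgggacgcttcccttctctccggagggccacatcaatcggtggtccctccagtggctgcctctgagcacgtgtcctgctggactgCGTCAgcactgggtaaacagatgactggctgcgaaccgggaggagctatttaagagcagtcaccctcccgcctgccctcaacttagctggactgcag

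The libraries held between 20495605 and 24881257 reads on the listed genes. These reads were worked out from the deposited log2 values of CPM, read counts scaled to a common library size, and the 10 genes had between 144 and 8769 reads in each library, far above the 3 reads taken as the smallest level the depth can show. *Phf21b* itself had 2.15, 3.57, and 3.87 CPM in Phf21bΔ4/Δ4 replicates 2, 3, and 6, and 6.50, 5.23, and 6.47 CPM in Phf21b+/+ replicates 5, 7, and 8, a log2 difference of -0.96 (FDR 0.141, limma). Every Phf21bΔ4/Δ4 library thus lay below every Phf21b+/+ library, although the difference did not pass the threshold. Some libraries stood apart in tissue markers. Medial habenula markers summed to between 10.1 and 18.8 CPM in Phf21bΔ4/Δ4 libraries and to between 197 and 263 CPM in Phf21b+/+ libraries. Choroid plexus markers summed to 15690 CPM in Phf21b+/+ replicate 7, to 977 CPM in Phf21b+/+ replicate 8, and to at most 79.9 CPM in the other libraries.

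All 10 interneuron identity genes had a log2 difference above 0 between Phf21bΔ4/Δ4 and Phf21b+/+ hippocampi, as did 47.6% of all listed genes. The mean of the summed level of the 10 genes was 1.54-fold higher, beside 1.08-fold for the summed CPM of all listed genes. The sum was 1239, 1279, and 1074 CPM in Phf21bΔ4/Δ4 replicates 2, 3, and 6 and 843, 725, and 763 CPM in Phf21b+/+ replicates 5, 7, and 8. The groups of libraries did not overlap for 7 of the 10 genes, each higher in Phf21bΔ4/Δ4 mice, where 31.0% of all genes separated in either direction, 15.0% higher and 16.0% lower. Only *Gad2* passed an FDR of 0.1 with a fold change above 1.3 by limma, which was 1 of 10 genes beside 1.22% of all genes called and 0.553% called higher. None of the 10 was called lower, beside 0.663% of all genes. At an unadjusted p under 0.05 there were 8 higher and 0 lower, where 23.6% of all genes passed that limit, 11.6% as higher (1685 genes) and the rest as lower (1736 genes). Limma voom on the recovered reads called 1 higher and 0 lower, beside 57 higher (0.394%) and 74 lower of all 14477 genes. The median log2 difference over the 10 genes was 0.65, against -0.02 over all listed genes.

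**Figure D1:**
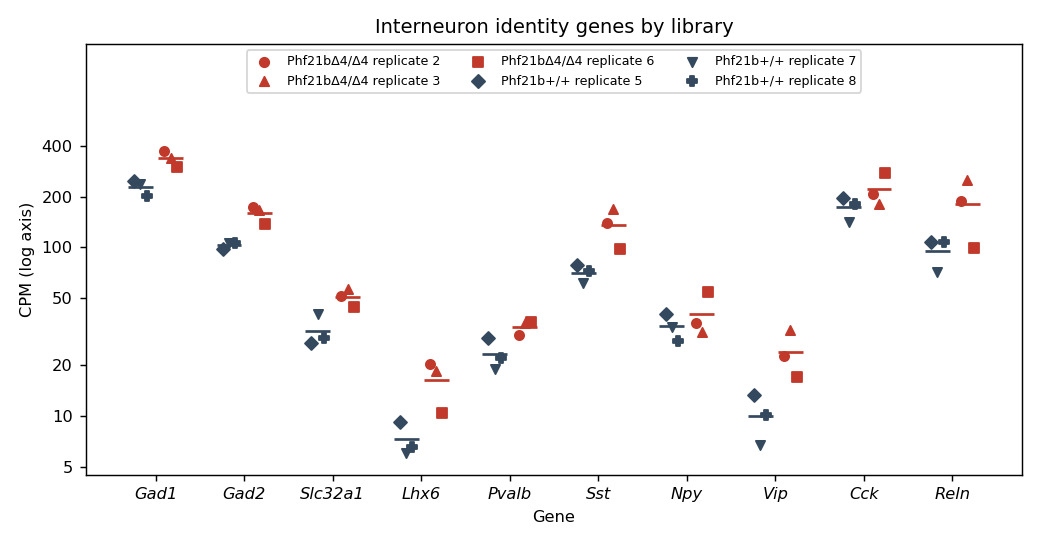
Level of each interneuron identity gene in CPM on a log axis, with 1 symbol per library and a horizontal line at the mean of the 3 libraries of each genotype. The Phf21bΔ4/Δ4 libraries lie above all Phf21b+/+ libraries for 7 genes and overlap them for *Npy*, *Cck*, and *Reln*.

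The log2 differences of the general GABAergic genes lay between 0.56 and 0.68. Positions are on GRCm38 from the GENCODE M21 annotation. *Gad1* (ENSMUSG00000070880.10, chr2:70553072-70602014, plus strand), for the decarboxylase that supplies most of the cell's GABA, had 369.8, 339, and 301 CPM in Phf21bΔ4/Δ4 replicates 2, 3, and 6. In Phf21b+/+ replicates 5, 7, and 8 it had 246, 238, and 201 CPM, so that the genotypes were separated by a gap of 0.29 on the log2 scale. The log2 difference was 0.56 (SE 0.12, FDR 0.116 by limma), a 1.48-fold higher level that missed the FDR threshold.

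*Gad2* (ENSMUSG00000026787.3, chr2:22622205-22693874, plus strand), for the decarboxylase concentrated at nerve terminals, rose in Phf21bΔ4/Δ4 mice. It had 174, 165, and 137 CPM in Phf21bΔ4/Δ4 replicates 2, 3, and 6 and 97.3, 106, and 105 CPM in Phf21b+/+ replicates 5, 7, and 8. The Phf21b+/+ libraries were within 0.13 of each other on the log2 scale, the narrowest range of the 10 genes in that genotype, and the lowest Phf21bΔ4/Δ4 library was 0.36 above the highest of them. The mean rose from 103 ± 4.94 CPM to 158.7 ± 19.5 CPM (mean ± SD of 3 libraries), a fold change of 1.53 with a 95% interval from 1.29 to 1.83 (log2 difference 0.62, SE 0.11, FDR 0.0831 by limma's moderated test). An exact permutation test of *Gad2* gave p = 0.1, the smallest that 3 libraries against 3 allow.

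*Slc32a1* (ENSMUSG00000037771.11, chr2:158610767-158615748, plus strand), for the vesicular transporter, had 51.5, 56.4, and 44.2 CPM in Phf21bΔ4/Δ4 replicates 2, 3, and 6. Its Phf21b+/+ levels were 27.2, 40.0, and 28.9 CPM in replicates 5, 7, and 8, and replicate 7 came close to the lowest Phf21bΔ4/Δ4 library. The log2 difference was 0.68 (SE 0.17, FDR 0.134, limma). The antisense gene *Gm14205* shares 697 bp of exon with *Slc32a1*, so reads of the pair cannot be fully told apart if strand was not used in counting, which is not stated. The same holds for *Reln*, which shares 246 bp of exon with the antisense gene *Gm10475*. *Lhx6* shares 104 bp of exon with *Gm27953* on the same strand, an overlap that strand cannot resolve. The ratio of *Gad1* to *Gad2* CPM lay between 2.05 and 2.20 in Phf21bΔ4/Δ4 libraries and between 1.91 and 2.53 in Phf21b+/+ libraries, so it overlapped between the genotypes.

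*Lhx6* (ENSMUSG00000026890.19, chr2:36081953-36105408, minus strand), the transcription factor gene of interneurons from the medial ganglionic eminence, had the second largest log2 difference of the 10 genes. Its levels were 20.4, 18.5, and 10.4 CPM in Phf21bΔ4/Δ4 replicates 2, 3, and 6 and 9.30, 6.08, and 6.56 CPM in Phf21b+/+ replicates 5, 7, and 8. Phf21bΔ4/Δ4 replicates 2 and 3 stood well above the rest, while Phf21bΔ4/Δ4 replicate 6 was only slightly above Phf21b+/+ replicate 5. The log2 difference was 1.14 (SE 0.29, FDR 0.135, limma), with a 95% interval of the fold change from 1.36 to 3.55.

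Among the class genes with an origin in the medial ganglionic eminence, *Sst* (ENSMUSG00000004366.4, chr16:23889573-23890958, minus strand), for the peptide of dendrite-targeting interneurons, had 139.5, 169.7, and 98.3 CPM in Phf21bΔ4/Δ4 replicates 2, 3, and 6. In Phf21b+/+ replicates 5, 7, and 8 *Sst* had 78.5, 61.4, and 72.5 CPM. The genotypes did not overlap, and the log2 difference was 0.91 (SE 0.20, FDR 0.132, limma). *Pvalb* (ENSMUSG00000005716.16, chr15:78191114-78206400, minus strand), for the calcium-binding protein of fast-spiking basket and chandelier cells, had 30.2, 35.7, and 36.0 CPM in the Phf21bΔ4/Δ4 libraries and 28.9, 19.1, and 22.2 CPM in the Phf21b+/+ libraries, in the same order of replicates. The gap between the genotypes was only 0.06 on the log2 scale for *Pvalb*, and the log2 difference was 0.55 (SE 0.17, FDR 0.151, limma). *Pvalb* lies on chromosome 15, as *Phf21b* does, with 6.58 Mb between them.

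*Npy* (ENSMUSG00000029819.6, chr6:49822710-49829507, plus strand), for the neuropeptide of neurogliaform, ivy, and some dendrite-targeting cells, did not separate the genotypes. It had 35.8, 31.4, and 54.5 CPM in Phf21bΔ4/Δ4 replicates 2, 3, and 6 and 40.2, 33.8, and 28.0 CPM in Phf21b+/+ replicates 5, 7, and 8. Its highest level was in Phf21bΔ4/Δ4 replicate 6, and 2 of the Phf21bΔ4/Δ4 libraries lay within the range of the Phf21b+/+ libraries. The log2 difference was 0.23 (SE 0.23, FDR 0.546, limma), and the 95% interval of the fold change ran from 0.803 to 1.71.

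*Vip* (ENSMUSG00000019772.5, chr10:5639218-5647617, plus strand), for the peptide of interneurons that inhibit other interneurons, had the largest log2 difference of the 10 genes. Its levels were 22.8, 32.3, and 17.1 CPM in Phf21bΔ4/Δ4 replicates 2, 3, and 6 and 13.3, 6.79, and 10.1 CPM in Phf21b+/+ replicates 5, 7, and 8. The genotypes did not overlap, but the spread within each was wide, with ranges of 0.92 in Phf21bΔ4/Δ4 and 0.97 in Phf21b+/+ libraries on the log2 scale, against medians over all genes of 0.33 and 0.25. The log2 difference was 1.26 (SE 0.31, FDR 0.134, limma), a 2.39-fold higher mean level whose 95% interval ran from 1.43 to 3.998.

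*Cck* (ENSMUSG00000032532.7, chr9:121489824-121495694, minus strand), for the peptide of regular-spiking basket cells and of some excitatory cells, had 206, 181, and 277 CPM in Phf21bΔ4/Δ4 replicates 2, 3, and 6. Its Phf21b+/+ levels were 195, 142, and 181 CPM in replicates 5, 7, and 8, overlapping the Phf21bΔ4/Δ4 range, and the log2 difference was 0.35 (SE 0.19, FDR 0.2898, limma). *Reln* (ENSMUSG00000042453.14, chr5:21884454-22344702, minus strand), for the secreted glycoprotein reelin, had 189, 249, and 99.5 CPM in Phf21bΔ4/Δ4 replicates 2, 3, and 6 and 108, 71.5, and 107 CPM in Phf21b+/+ replicates 5, 7, and 8. Phf21bΔ4/Δ4 replicate 6 fell among the Phf21b+/+ libraries, and the range within Phf21bΔ4/Δ4 mice, 1.33 on the log2 scale, was the widest of the 10 genes. The log2 difference of *Reln* was 0.84 (SE 0.34, FDR 0.205, limma). The 4 genes with the TGACG core in their promoter windows had log2 differences from 0.35 (*Cck*) to 1.26 (*Vip*), against 0.23 (*Npy*) to 1.14 (*Lhx6*) for the other 6 genes, so that the ranges overlapped.

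**Figure D2:**
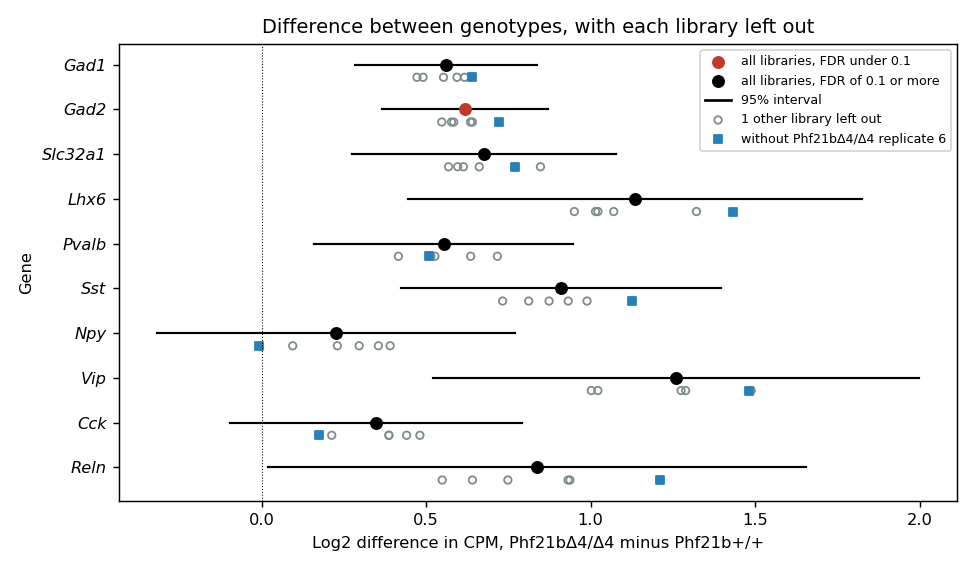
Log2 difference in CPM between Phf21bΔ4/Δ4 and Phf21b+/+ libraries for each gene, with its 95% interval from limma, and below it the difference with each of the 6 libraries left out. *Gad2* is the gene with an FDR under 0.1, at 0.62, and without Phf21bΔ4/Δ4 replicate 6 *Npy* lies at -0.01.

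The number of genes that passed the test changed with the libraries used. Phf21bΔ4/Δ4 replicate 6 was the lowest Phf21bΔ4/Δ4 library for 7 genes (*Gad1*, *Gad2*, *Slc32a1*, *Lhx6*, *Sst*, *Vip*, and *Reln*) and the highest for the other 3 (*Pvalb*, *Npy*, and *Cck*). Without it, 7 of the 10 genes were called higher by limma, namely those same 7, where 10.3% of all genes were called higher. *Gad2* then had a log2 difference of 0.72 (FDR 0.0118) and *Reln* one of 1.21 (FDR 0.0304, limma). Leaving out any other single library gave 0 calls among the 10 genes. In those fits between 9 and 45 of all 14477 genes were called, and at most 0.076% of all genes were called higher. The log2 difference of *Gad2* then lay between 0.55 and 0.64. Weighting all 6 libraries by limma's arrayWeights, with weights from 0.343 (Phf21bΔ4/Δ4 replicate 6) to 4.63 (Phf21b+/+ replicate 8), called 8 of the 10 higher (all but *Npy* and *Cck*) where 10.2% of all genes were called higher.

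Levels were compared between the genes as CPM per kilobase of annotated exon. In Phf21b+/+ libraries the order was *Cck* (132 CPM per kilobase), *Sst* (98.2), *Npy* (60.1), *Gad1* (29.9), *Pvalb* (22.5), *Gad2* (17.5), *Slc32a1* (11.5), *Reln* (4.02), *Vip* (2.96), and *Lhx6* (1.52). The libraries overlapped between the neighbours *Cck* and *Sst*, *Gad1* and *Pvalb*, and *Reln* and *Vip*, so their order is not resolved. In Phf21bΔ4/Δ4 libraries *Sst*, at 188 ± 49.7 CPM per kilobase, had the highest mean, with *Cck* next at 169 ± 38.2 CPM per kilobase (mean ± SD of 3 libraries), and these again overlapped. The other 8 genes kept their places in the order. Within the GABAergic identity set, the peptide precursor mRNAs of somatostatin, neuropeptide Y, and cholecystokinin thus had the highest means by this measure in both genotypes. The length counts every annotated exon of a gene, whichever transcripts are expressed. It was 7639 bp for *Gad1* and 566 bp for *Npy*, and the order with other lengths was not tested.

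The level of each gene was also set against the summed CPM of *Gad1* and *Gad2* in the same library. That sum was 544, 505, and 438 CPM in Phf21bΔ4/Δ4 replicates 2, 3, and 6 and 343, 344, and 306 CPM in Phf21b+/+ replicates 5, 7, and 8. On this scale the mean log2 ratios of *Pvalb* were -3.87 in Phf21bΔ4/Δ4 and -3.84 in Phf21b+/+ libraries, and those of *Slc32a1* were -3.29 and -3.39. For *Vip* they were -4.41 and -5.09, and *Vip* was the gene of the 8 whose ratios did not overlap between the genotypes, by a margin of 0.01 or less on the log2 scale. The mean ratios of *Lhx6* (-4.97 and -5.52), *Sst* (-1.90 and -2.23), and *Reln* (-1.56 and -1.82) were higher in Phf21bΔ4/Δ4 libraries, and those of *Npy* (-3.65 and -3.30) and *Cck* (-1.18 and -0.95) were lower, with overlap in each case. Phf21bΔ4/Δ4 replicate 6 had the highest ratio of all 6 libraries for *Npy*, at -3.01, and for *Cck*, at -0.66, while its ratio for *Lhx6*, at -5.39, lay within the Phf21b+/+ range.

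**Figure D3:**
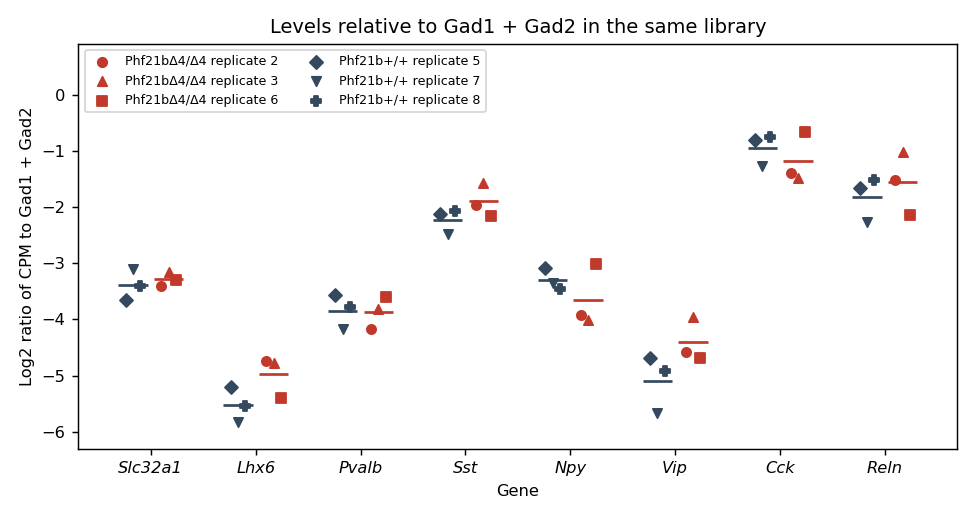
Log2 ratio of the CPM of each gene to the summed CPM of *Gad1* and *Gad2* in the same library, with 1 symbol per library and a line at the mean of each genotype. The ratios overlap between the genotypes for 7 of the 8 genes, and Phf21bΔ4/Δ4 replicate 6 has the highest ratio for *Npy* and *Cck*.

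Other genes of GABAergic interneurons were taken from 3 lists, whose counts at an unadjusted p under 0.05 stand beside 1685 higher and 1736 lower of all 14477 genes at that limit. The first held 7 genes for GABA uptake, breakdown, and release besides the 10. None was called in either direction by limma or by voom, 2 had an unadjusted p under 0.05, both higher, and the median log2 difference was 0.18. *Slc6a13*, a GABA transporter gene of the meninges and blood vessels, was the least abundant, with 2.56 and 3.47 CPM and a log2 difference of -0.42 (FDR 0.322, limma).

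The second list held 15 transcription factor and regulatory RNA genes of interneurons, 14 of them with values. None was called by limma or by voom, 5 were higher and 1 lower at an unadjusted p under 0.05, and the median log2 difference was 0.47. *Prox1*, the most abundant by its mean over both genotypes, is shared by granule cells and interneurons of the caudal ganglionic eminence, and it had 68.2 ± 36.1 CPM in Phf21bΔ4/Δ4 and 133 ± 17.2 CPM in Phf21b+/+ mice (mean ± SD of 3 libraries; log2 difference -1.08, FDR 0.155, limma). Some further genes of the lists were picked after their values were seen. *Npas1*, a caudal interneuron gene, had a log2 difference of 0.91 (FDR 0.116, limma), and *Dlx6os1*, the noncoding RNA at the *Dlx5* and *Dlx6* locus, one of 0.52 (FDR 0.130, limma). *Dlx1*, a factor used by nearly all developing forebrain interneurons, had 13.1 ± 2.01 CPM and 10.6 ± 4.45 CPM (mean ± SD of 3 libraries; FDR 0.467, limma).

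The third list held 24 genes of interneuron classes, 23 of them with values, and 2 were called higher and 1 lower by limma (1 and 1 by voom). At an unadjusted p under 0.05 there were 11 higher and 4 lower, and the median log2 difference was 0.63. *Crhbp*, for the corticotropin-releasing hormone binding protein made by many somatostatin cells, rose with little spread, by 0.87 on the log2 scale (SE 0.09, FDR 0.0359, limma). *Cnr1*, for the cannabinoid receptor on terminals of cholecystokinin cells and the most abundant gene of the list, rose from 206 ± 18.3 CPM to 459 ± 129.8 CPM (mean ± SD of 3 libraries; log2 difference 1.12, FDR 0.0931, limma). *Sncg*, a synuclein gene found in some cholecystokinin cells, fell from 13.7 ± 3.20 CPM to 2.08 ± 0.446 CPM (mean ± SD of 3 libraries; log2 difference -2.71, FDR 0.0178, limma). *Calb2*, for calretinin, picked after its values were seen and also made outside interneurons, had 31.8 ± 19.3 CPM in Phf21bΔ4/Δ4 and 109 ± 23.6 CPM in Phf21b+/+ mice (mean ± SD of 3 libraries; log2 difference -1.94, FDR 0.131, limma). The receptor tyrosine kinase gene *Kit*, picked in the same way, had 216, 151, and 52.9 CPM in Phf21bΔ4/Δ4 replicates 2, 3, and 6 and 52.6, 26.5, and 46.1 CPM in Phf21b+/+ replicates 5, 7, and 8, so that Phf21bΔ4/Δ4 replicate 6 lay just above the Phf21b+/+ libraries. The medial habenula and thalamic marker sums were lower in Phf21bΔ4/Δ4 libraries, as *Sncg* and *Calb2* were, and their part in these differences was not tested.

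**Figure D4:**
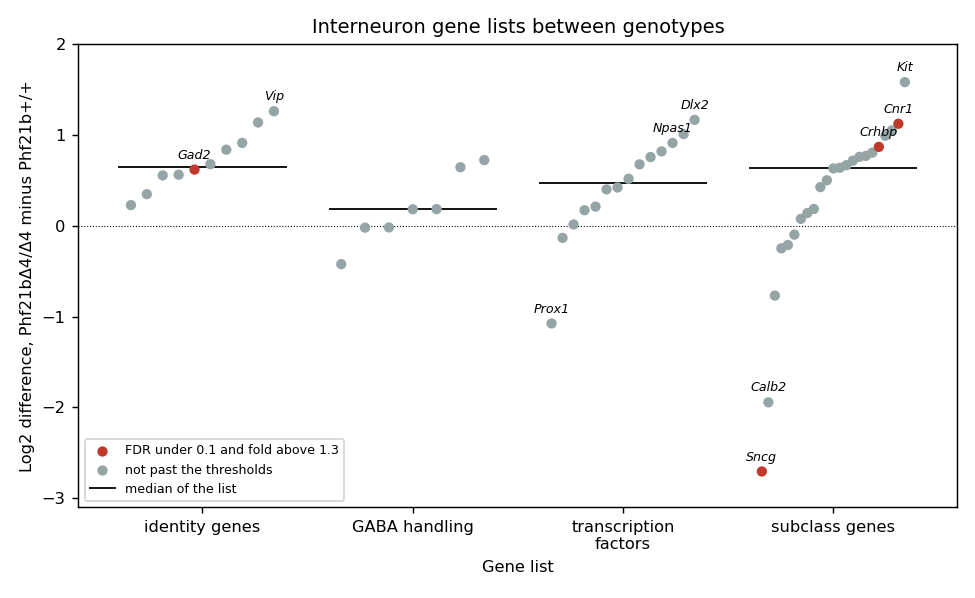
Log2 difference between Phf21bΔ4/Δ4 and Phf21b+/+ libraries for each gene of the 4 interneuron lists, sorted within each list, with the median as a line and genes past both thresholds in red. The medians are 0.65, 0.18, 0.47, and 0.63, and *Sncg*, at -2.71, is the gene called lower.

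Markers of other cells moved with the genotype beside the interneuron genes. General neuron genes summed to between 8023 and 9446 CPM in Phf21bΔ4/Δ4 and between 5959 and 7626 CPM in Phf21b+/+ libraries. The ratio of the means was 1.29, beside 1.54 for the interneuron identity genes and 1.08 for all listed genes. All 8 general neuron genes had a log2 difference above 0, and 0 were called by limma or voom, with 4 higher at an unadjusted p under 0.05. CA1 pyramidal neuron markers summed to between 1350 and 1496 CPM in Phf21bΔ4/Δ4 and between 672 and 805 CPM in Phf21b+/+ libraries, with 2 of 7 called higher (*Fibcd1* and *Mpped1*). CA2 and CA3 markers overlapped, from 762 to 1257 CPM and from 861 to 1023 CPM. Dentate granule cell markers summed to between 363 and 787 CPM in Phf21bΔ4/Δ4 and between 885 and 1012 CPM in Phf21b+/+ libraries, with 1 of 8 called lower (*Pdzd2*), and Phf21bΔ4/Δ4 replicate 6 was the library at 787 CPM. Of the medial habenula markers, 12 of 12 were called lower. The hippocampal markers *Prox1*, *Fibcd1*, and *Mpped1* had at least 44.4, 86.8, and 89.4 CPM in every library. The part of these differences in those of the interneuron genes was not tested.

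Markers of brain regions outside the hippocampus, some of them of GABAergic neurons, were checked as well. Striatal projection neuron markers summed to between 147 and 197 CPM in Phf21bΔ4/Δ4 and between 168 and 219.6 CPM in Phf21b+/+ libraries, with 0 of 10 called by limma or voom, and 1 higher and 2 lower at an unadjusted p under 0.05. Septal and thalamic reticular markers summed to between 80.8 and 110.2 CPM in Phf21bΔ4/Δ4 and between 215 and 324 CPM in Phf21b+/+ libraries, with 3 of 6 called lower (*Zic1*, *Zic2*, and *Zic4*). Thalamic markers summed to between 124 and 223 CPM in Phf21bΔ4/Δ4 and between 250.4 and 531 CPM in Phf21b+/+ libraries, with *Tcf7l2* called lower. Within these lists some genes went the other way. *Trpc4*, on the septal and reticular list and picked after its values were seen, had 80.8 ± 16.2 CPM in Phf21bΔ4/Δ4 and 51.0 ± 3.283 CPM in Phf21b+/+ libraries (FDR 0.130, limma). *Pde10a*, the most abundant gene of the striatal list, had 100.8 ± 6.79 CPM and 82.4 ± 10.96 CPM (FDR 0.190, limma). The part of these tissues in the differences of the interneuron genes was not tested. Neocortical excitatory neuron markers stood apart in Phf21bΔ4/Δ4 replicate 3, at 306 CPM, against 144 and 130.4 CPM in Phf21bΔ4/Δ4 replicates 2 and 6 and 111 to 150.4 CPM in Phf21b+/+ libraries. Phf21bΔ4/Δ4 replicate 3 was also the highest library for *Sst*, *Vip*, *Reln*, and *Slc32a1*. Without it their log2 differences were 0.73, 1.02, 0.55, and 0.60 (FDR 0.241, 0.274, 0.407, and 0.277, limma). The highest library was Phf21bΔ4/Δ4 replicate 2 for *Gad1*, *Gad2*, and *Lhx6*, and Phf21bΔ4/Δ4 replicate 6 for *Pvalb*, *Npy*, and *Cck*. The part of neocortical tissue in these differences was not tested. Of the Cajal-Retzius markers, which bear on *Reln*, 5 of 7 had values, and they summed to between 146 and 276 CPM in Phf21bΔ4/Δ4 and between 169 and 182 CPM in Phf21b+/+ libraries. Of the 5, 1 was called lower, *Nhlh2*, which is also on the medial habenula list. At an unadjusted p under 0.05 by limma there were 1 higher and 3 lower, beside 1685 and 1736 of all 14477 genes. The median log2 difference was -1.52, with 1 of the 5 genes above 0. *Ebf3*, the least abundant of them, had 0.984 ± 0.579 CPM in Phf21bΔ4/Δ4 and 3.93 ± 1.72 CPM in Phf21b+/+ libraries (FDR 0.135, limma). The defining factor *Trp73*, picked after its values were seen, was at 1.64, 0.857, and 3.74 CPM in Phf21bΔ4/Δ4 replicates 2, 3, and 6 and at 3.70, 7.77, and 4.31 CPM in Phf21b+/+ replicates 5, 7, and 8. *Spock1*, the most abundant gene of this list, made up most of its sum. It had 246, 195, and 119 CPM in Phf21bΔ4/Δ4 replicates 2, 3, and 6 and 129.9, 91.2, and 115 CPM in Phf21b+/+ replicates 5, 7, and 8 (log2 difference 0.69, FDR 0.197, limma). Like *Reln*, it was highest in Phf21bΔ4/Δ4 replicates 2 and 3, and *Trp73* was lowest in those libraries. The part of Cajal-Retzius cells in the level of *Reln* was not tested.

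**Figure D5:**
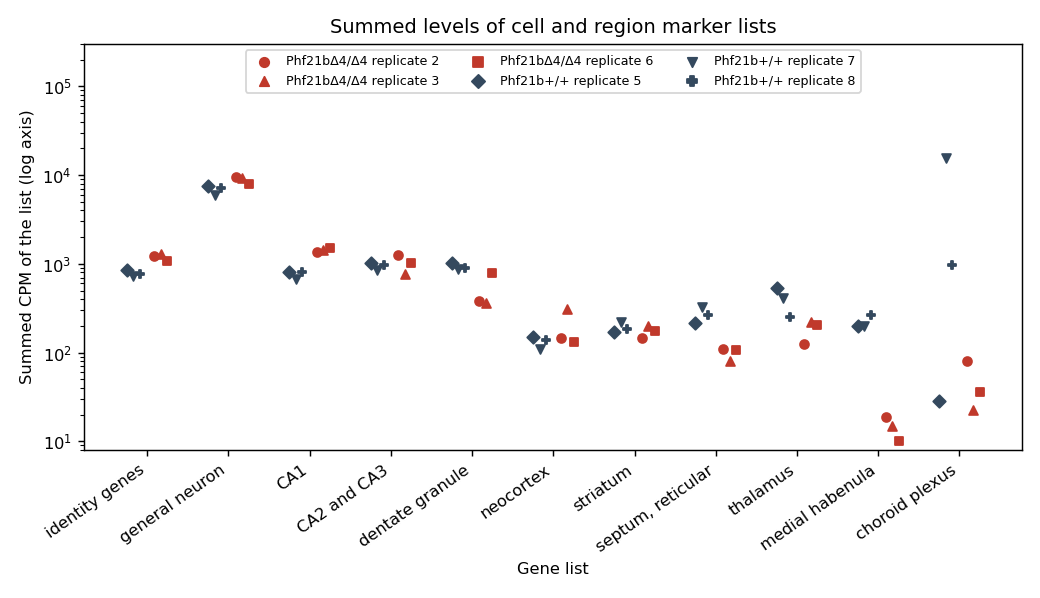
Summed CPM of each marker list on a log axis, with 1 symbol per library. The sums of the 10 interneuron identity genes, the general neuron genes, and the CA1 markers are higher in every Phf21bΔ4/Δ4 library. The sums of the medial habenula, dentate, thalamic, and septal lists are lower, and choroid plexus markers reach 15690 CPM in Phf21b+/+ replicate 7.

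The genes with the profile most like the general GABAergic genes were found by the root mean square distance between log2 CPM values over the 6 libraries, each gene centred on its own mean. For *Gad2* they were *Tle3* (distance 0.05), *Pcdhga9* (0.07), and *Pnma1* (0.07), of which *Tle3* encodes a transcriptional corepressor. For *Gad1* they were *Aacs*, *Pdgfrb*, and *Atp2a2*, at distances from 0.05 to 0.06. For *Slc32a1* they were *Dysf*, *Gm19531*, and *Gm14204*, at distances from 0.06 to 0.10. *Gm14204* is a noncoding gene on the minus strand of chromosome 2 from 158595472 to 158610723. Transcribed away from *Slc32a1*, it has its 5′ end 43 bp from the start of that gene at 158610767 on the plus strand. It had 5.52 ± 1.002 CPM in Phf21bΔ4/Δ4 and 3.21 ± 0.439 CPM in Phf21b+/+ mice (mean ± SD of 3 libraries; log2 difference 0.78, FDR 0.136, limma). No exon of *Gm14204* overlaps another gene in the annotation.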

How the data were processed

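RNA from 3 Phf21bΔ4/Δ4 and 3 Phf21b+/+ hippocampal samples was sequenced by the authors after ribosomal RNA removal. Per the labels and the study's methods, the authors trimmed reads with Trimmomatic 0.39, mapped them to GRCm38 with STAR 2.7.3a, counted them over GENCODE genes with featureCounts (Subread 1.6.4), dropped genes that did not reach 1 CPM in 2 samples, and scaled to effective library size with edgeR. The deposited values are log2 CPM of 14477 genes. The prior count and the strandedness are not given in the sources used here. With the lowest deposited value, -7.81, taken as 0 reads, 100% of the values were whole reads within 0.1, and CPM and reads were recovered in this way. A level of 3 reads, the floor used here, covers counting error only.

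Genotypes were compared with limma 3.58.1 in R 4.3.3 on the deposited log2 values of all genes (prior variance following mean expression, no covariate, 2-sided, Benjamini-Hochberg adjustment). A gene was called when its FDR was under 0.1 and its fold change exceeded 1.3, as in the study. Single genes were also compared by an exact permutation test over 20 splits. The scripts were tested on simulated data. Positions and exon lengths came from GENCODE M21 on GRCm38. The members and lists were chosen with earlier results of these data known. By rule, the named genes were all 10 identity genes, called genes of the lists, the most abundant and up to 2 of the least abundant genes of each list, the 3 genes nearest in profile to *Gad1*, *Gad2*, and *Slc32a1*, and *Phf21b*. The result of 1 gene that this rule names is not reported here. Alternatives were other variance priors, library weights, filters, scalings, log2(CPM + 1), voom, an FDR under 0.05, and each library left out. Corrections for GC content and transcript length were added after seeing the data.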

Additional observations from a re-analysis of the deposited data

How the results depend on the processing

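The median log2 difference of the 10 interneuron identity genes, 0.65 with the values as deposited, lay between 0.57 and 0.78 under every alternative run. The number of these genes called, 1, fell to 0 with 1 prior variance for all genes, with quantile normalization, and at an FDR under 0.05, and it was 8 with library weights. The number of all genes called, 176, was 75 with 1 prior variance, 156 with quantile normalization, and 25 at an FDR under 0.05. It was 3549 with library weights and 101 when genes averaging under 1 log2 CPM were dropped. With 1 library omitted at a time, between 9 and 2830 of all genes and between 0 and 7 of the 10 genes were called; the highest values came without Phf21bΔ4/Δ4 replicate 6 and the lowest for all genes without Phf21b+/+ replicate 8. The log2 difference of *Npy* reversed to -0.0074 without Phf21bΔ4/Δ4 replicate 6 and was at most 0.39 with another library omitted. *Gad2* was past both thresholds in 9 of its 16 alternative fits, with an FDR from 0.00829 to 0.305 over them. The cause of these changes was not tested. No paired analysis was possible because the genotypes share no replicate numbers.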

Other observations

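The summed levels of the 3 glial marker lists overlapped between the genotypes. Astrocyte markers summed to between 6203 and 7378 CPM in Phf21bΔ4/Δ4 and between 5558 and 6999 CPM in Phf21b+/+ libraries, and 1 of 8, *Aqp4*, was called lower by limma. At an unadjusted p under 0.05, 0 astrocyte markers were higher and 2 were lower (*Aqp4* and *Gfap*). Microglia markers summed to between 432 and 477 CPM and between 430.4 and 461 CPM, with 0 of 8 called by limma or voom and 1 at an unadjusted p under 0.05. Oligodendrocyte markers summed to between 5866 and 8933 CPM and between 7078 and 9806 CPM, with 0 of 8 called by limma or voom and 0 at an unadjusted p under 0.05. In Phf21bΔ4/Δ4 replicate 6 the oligodendrocyte sum was 8933 CPM, against 5866 and 6040 CPM in Phf21bΔ4/Δ4 replicates 2 and 3. Of the 10 interneuron identity genes, 7 were lowest among Phf21bΔ4/Δ4 libraries in replicate 6, and *Pvalb*, *Npy*, and *Cck* were highest in it. The relation of the oligodendrocyte sum to the interneuron genes was not tested. The choroid plexus list had 1 of 8 genes called lower by limma (*Otx2*) and 0 by voom.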
